A study of Mus musculus with 6 samples.

Results

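The loop between parathyroid hormone-related protein (PTHrP) and Indian hedgehog was followed through 9 genes, chosen by name and matched to the rows of the expression table by their Ensembl identifiers. They were *Pthlh* and *Ihh* for the ligands, *Pth1r* and *Ptch1* for the receptors, *Hhip* for a hedgehog antagonist, *Smo* for the signal transducer and *Gli1*, *Gli2* and *Gli3* for the transcription factors. All 9 were among the 47729 genes of the table, and all 9 were among the 19308 that were tested, which averaged at least 20 reads per library.

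In the growth plate, prehypertrophic chondrocytes secrete Indian hedgehog, which binds Patched-1 and so releases Smoothened to act on the GLI proteins. Hedgehog signaling raises PTHrP in the periarticular and resting chondrocytes, and PTHrP acts through its receptor PTH1R to keep chondrocytes proliferating and to delay hypertrophy. *Ptch1*, *Gli1* and *Hhip* are themselves targets of hedgehog signaling, so their transcripts are commonly read as a record of it.

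The samples were proximal tibial epiphyses of mice at 14 days of age from generation F13 of the Longshanks selection experiment. Control mice came from a random-bred line labelled as ICR, and LS1 mice came from Longshanks 1, a line of the same background bred for tibia length relative to body mass. Each group had 3 mice from different families, and both epiphyses of a mouse were pooled, so that growth plate, metaphysis, articular cartilage, secondary ossification center and marrow were sequenced together as polyadenylated RNA. The LS1 group is a single line, and what selection did cannot be told apart from other differences between these lines.

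Depth ran from 68803249 to 76581954 reads in Control and from 82227711 to 88745366 in LS1. Each LS1 library was therefore deeper than each Control library before normalization. The first principal component of all tested genes took 35.1% of the variance and put LS1 replicate 3 (-4.29) between the Control libraries (-41.5 to -22.1) and the other LS1 libraries (43.7 and 50.1). LS1 replicate 1 differed from all the others in its relation to GC content, as described below for the genes it touches. The summed level of 16 chondrocyte markers, which include the cartilage collagens *Col2a1* and *Col9a1*, was 2641780 to 3002670 normalized counts in Control and 3352580 to 3871720 in LS1. The label of the tissue as bone, cartilage and marrow was matched by high counts of cartilage, bone and blood cell genes. In these bulk samples a larger share of a cell type and more RNA per cell of that type cannot be told apart, and this holds for each difference below.

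The 9 genes lie on 6 chromosomes (GRCm38, GENCODE M21). *Pthlh* (ENSMUSG00000048776) spans 147252101 to 147264183 of chromosome 6 on the minus strand, and *Smo* (ENSMUSG00000001761) spans 29735503 to 29761365 of the same chromosome on the plus strand. *Ihh* (ENSMUSG00000006538) spans 74945315 to 74951672 of chromosome 1 and *Gli2* (ENSMUSG00000048402) 118834132 to 119053619, both on the minus strand. *Ptch1* (ENSMUSG00000021466) spans 63508328 to 63573598 of chromosome 13 on the minus strand and *Gli3* (ENSMUSG00000021318) 15463235 to 15730026 on the plus strand. The other members are *Pth1r* (ENSMUSG00000032492) at 110722085 to 110747145 of chromosome 9, *Gli1* (ENSMUSG00000025407) at 127329882 to 127341974 of chromosome 10 and *Hhip* (ENSMUSG00000064325) at 79965851 to 80058006 of chromosome 8, all on the minus strand. The exons of *Pth1r*, *Gli1*, *Gli3* and *Hhip* share between 95 and 327 bases with genes on the opposite strand, and since the use of strand in the counting is not stated, reads in those bases may belong to either gene. The exons of *Pthlh*, *Ihh*, *Ptch1*, *Smo* and *Gli2* share none.

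The start regions of the ligands and of 2 hedgehog targets are shown because the values below turn on these genes. Their GC content is not that of the transcripts, which is what the GC trend described below concerns. The sequences are those of RefSeq for GRCm38.p6, in which 8 of the 9 members had an entry, all but *Gli1*. Each is written 5′ to 3′ on the strand of the gene and ends before the annotated start. For *Pthlh* only the 80 bases that lie outside annotated exons are given, at chr6:147264184-147264263, and the others are the whole 250 bases at chr1:74951673-74951922 for *Ihh*, chr13:63565736-63565985 for *Ptch1* and chr8:80058009-80058258 for *Hhip*, all on the minus strand. Capitals mark a GC box (GGGCGG, or CCGCCC when it lies on the other strand) or a cAMP response element (TGACGTCA).
Pthlh: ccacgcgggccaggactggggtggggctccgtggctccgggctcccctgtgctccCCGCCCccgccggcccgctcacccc
Ihh: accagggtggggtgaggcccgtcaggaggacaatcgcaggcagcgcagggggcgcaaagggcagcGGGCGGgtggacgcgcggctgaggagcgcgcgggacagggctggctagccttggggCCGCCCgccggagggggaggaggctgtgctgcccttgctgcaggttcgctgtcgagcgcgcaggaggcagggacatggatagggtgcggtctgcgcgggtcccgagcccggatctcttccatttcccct
Ptch1: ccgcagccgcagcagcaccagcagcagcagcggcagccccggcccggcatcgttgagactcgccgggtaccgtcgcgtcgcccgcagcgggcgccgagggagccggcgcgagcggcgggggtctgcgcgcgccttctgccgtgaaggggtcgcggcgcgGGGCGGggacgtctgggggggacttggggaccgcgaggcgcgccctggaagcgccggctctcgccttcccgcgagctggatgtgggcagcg
Hhip: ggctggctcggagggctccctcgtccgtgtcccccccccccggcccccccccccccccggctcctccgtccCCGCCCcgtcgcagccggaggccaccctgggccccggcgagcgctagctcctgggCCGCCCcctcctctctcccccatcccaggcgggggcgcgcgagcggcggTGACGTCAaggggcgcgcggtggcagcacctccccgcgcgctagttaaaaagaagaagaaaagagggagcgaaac
Over the 250 bases before the start, GC content was 75.2% for *Pthlh*, 72.0% for *Ihh*, 78.4% for *Ptch1* and 76.0% for *Hhip*. The GC box was found on either strand in 8 of the 10 windows of these genes (7 of the 8 genes), against 32.7% of the 32851 windows in the table. Windows of like GC content were not compared. The cAMP response element was found in *Hhip* alone, from 75 to 68 bases before its start, and in 1.55% of all windows. The consensus GLI site (GACCACCCA, either strand) was in none of the windows of these genes and in 0.225% of all windows. The TATA box (TATAAA) was also in none of them and in 12.4% of all, and the RUNX core (TGTGGT) was in the window of *Gli3* and in 14.0% of all. None of these motifs overlapped another in the windows shown.

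Per kilobase of exon, the receptor *Pth1r* was by far the most abundant of the 9 transcripts and its ligand *Pthlh* the least. The mean over the 6 libraries was 9025 normalized counts per kb for *Pth1r*, a level above that of 98.4% of the tested genes, and 49.6 per kb for *Pthlh*, above 22.0% of them. Between these came *Smo* (2162 per kb), *Ihh* (1295 per kb), *Ptch1* (710.2 per kb), *Gli1* (413.5 per kb), *Gli3* (215.5 per kb), *Gli2* (170.0 per kb) and *Hhip* (65.7 per kb). The ranges over the 6 libraries of *Pthlh* (33.7 to 75.3 per kb) and *Hhip* (50.7 to 86.2 per kb) overlapped, although *Hhip* was the higher within each library. The ranges of *Gli2* (153.4 to 198.8 per kb) and *Gli3* (176.8 to 265.6 per kb) also overlapped. All other neighbours in this order had ranges that did not overlap. The hedgehog ligand thus lay well above the PTHrP ligand, by a ratio of 12.7 in LS1 replicate 1 and of 26.0 to 34.4 in the other 5 libraries.

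**Figure D1:**
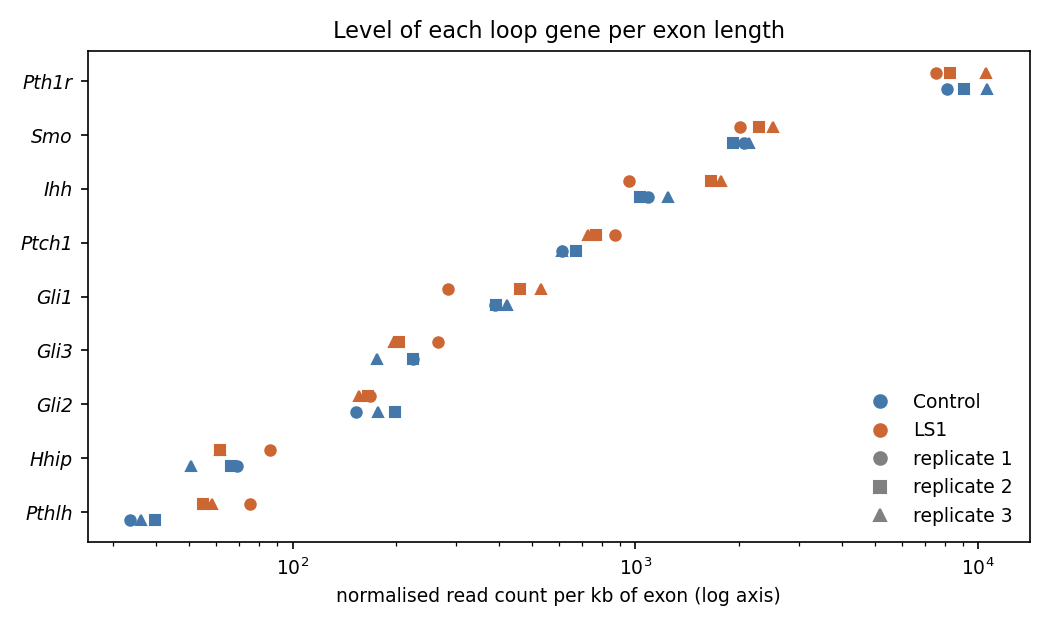
Level of each of the 9 loop genes in normalized read counts per kilobase of exon, on a log axis, with 1 point per library (blue, Control; orange, LS1; circle, square and triangle, replicates 1, 2 and 3). *Pth1r* stood highest at 7519 to 10598 per kb and *Pthlh* lowest at 33.7 to 75.3 per kb.

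*Pthlh*, which encodes PTHrP, was the member with the largest difference between the lines. It had 54.5, 64.3 and 58.6 normalized counts in Control replicates 1 to 3 and 121.9, 88.8 and 94.2 in LS1 replicates 1 to 3. Each LS1 library was above each Control library, and LS1 replicate 1 was the highest. The means were 59.1 ± 4.93 in Control and 101.6 ± 17.8 in LS1 (SD, n = 3), a log2 fold change of 0.76 with a standard error of 0.29 and a 95% interval of 0.12 to 1.405. The unadjusted p-value from limma was 0.0248, and the p-value adjusted over all 19308 genes was 0.317, so *Pthlh* did not pass the threshold of 0.05. By an exact permutation test (two-sided) p was 0.1, the smallest that 3 against 3 libraries can give.

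The precision of *Pthlh* is limited by its few reads. The Control mice gave 54, 58 and 53 reads of it, and the LS1 mice gave 128, 102 and 101. On the scale of normalized counts, the exact Poisson 95% intervals, which cover counting error only, reached up to 71.1, 83.1 and 76.7 in Control replicates 1 to 3 and started at 101.7, 72.4 and 76.7 in LS1 replicates 1 to 3. The interval of LS1 replicate 1 thus lay above all those of Control, while those of LS1 replicates 2 and 3 overlapped with Control. Without LS1 replicate 1 the log2 fold change was 0.62 and the unadjusted p-value from limma 0.0825.

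*Ihh*, the hedgehog ligand of the growth plate, differed more among the LS1 libraries than between the lines in the deposited values. Control replicates 1 to 3 had 3320, 3143 and 3800 normalized counts, and LS1 replicates 1 to 3 had 2922, 5067 and 5427. LS1 replicate 1 was the lowest of all 6 libraries, while LS1 replicates 2 and 3 exceeded each Control library. The means were 3421 ± 340 in Control and 4472 ± 1354 in LS1 (SD, n = 3). The log2 fold change was 0.34 with a standard error of 0.22 and a 95% interval of -0.13 to 0.81, and the adjusted p-value from limma was 0.530. Without LS1 replicate 1 the log2 fold change was 0.62, with an unadjusted p-value of 0.000692 and an adjusted p-value of 0.114 from limma. With the offset for GC content described below, *Ihh* in LS1 replicate 1 was at 11.93, above the 11.62 to 11.72 of Control (log2). The log2 fold change was then 0.44.

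**Figure D2:**
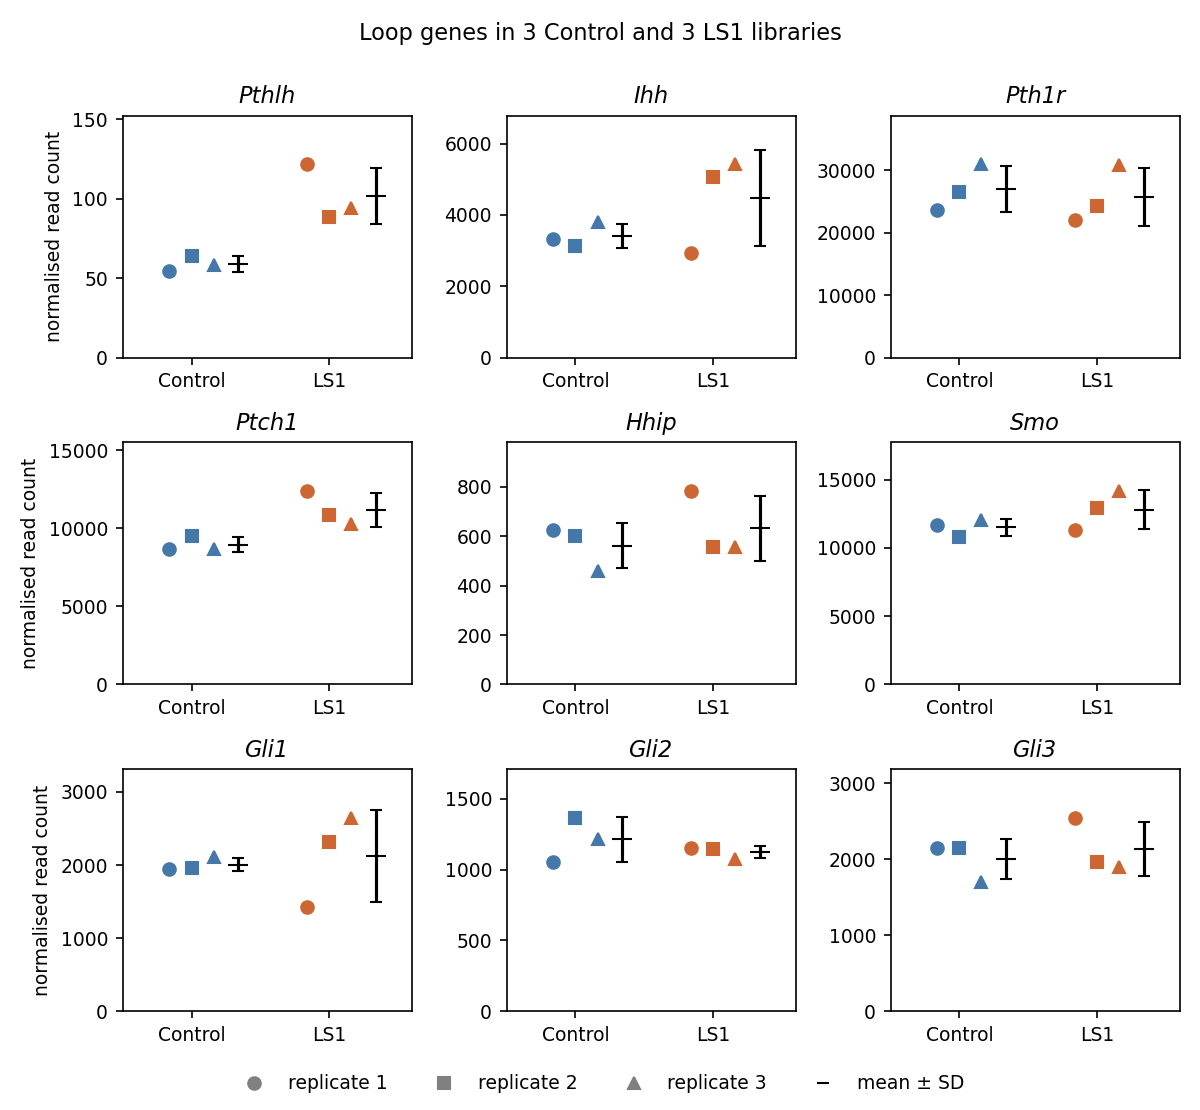
Normalized read counts of the 9 loop genes, with 1 panel per gene and 1 point per library (blue, Control; orange, LS1; circle, square and triangle, replicates 1, 2 and 3), and the group mean with its SD as a black bar. The groups were separated for *Pthlh* and *Ptch1*. LS1 replicate 1 was the lowest library for *Ihh*, *Pth1r* and *Gli1* and the highest for *Pthlh*, *Ptch1*, *Gli3* and *Hhip*.

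*Pth1r* encodes the receptor of PTHrP. Its normalized counts were 23711, 26515 and 31000 in Control replicates 1 to 3 and 21993, 24262 and 30911 in LS1 replicates 1 to 3, so the groups covered nearly the same range. Its log2 fold change was -0.08 with a standard error of 0.16 (adjusted p-value 0.868 from limma), and its 95% interval of -0.43 to 0.27 is what these data leave for a difference. Set against its ligand per kilobase, *Pth1r* stood at 228.2 to 292.7 times *Pthlh* in Control and at 99.9 to 181.6 times in LS1. This ratio did not overlap between the groups, as *Pthlh* itself did not.

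*Ptch1*, the hedgehog receptor and a target of the pathway, was the other member whose groups did not overlap. It had 8662, 9524 and 8679 normalized counts in Control replicates 1 to 3 and 12400, 10884 and 10296 in LS1 replicates 1 to 3. The lowest LS1 library was above the highest Control library, and LS1 replicate 1 was again the highest. The means were 8955 ± 493 and 11193 ± 1086 (SD, n = 3), a log2 fold change of 0.32 with a standard error of 0.13 and a 95% interval of 0.04 to 0.60. The unadjusted p-value from limma was 0.0290 and the adjusted p-value 0.330, and the exact permutation test gave 0.1. Without LS1 replicate 1 the log2 fold change was 0.24 (unadjusted p-value 0.0595 from limma).

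*Hhip*, which encodes a membrane protein that binds and holds back hedgehog ligands, was low in all mice. Its normalized counts were 627, 599 and 460 in Control replicates 1 to 3 and 783, 556 and 556 in LS1 replicates 1 to 3. LS1 replicate 1 was the highest library, while the other LS1 libraries lay inside the Control range. This gave a log2 fold change of 0.16 with a standard error of 0.22 and a 95% interval of -0.31 to 0.64 (adjusted p-value 0.786 from limma). In LS1 replicate 1 the targets *Ptch1* and *Hhip* were thus at their highest and the ligand *Ihh* at its lowest. The target *Gli1* went the other way and was, like *Ihh*, at its lowest there. Counts in that library also ran with GC content. With the offset for GC content described below, *Ihh* there was above each Control library (11.93 against 11.62 to 11.72, log2). *Ptch1* and *Hhip* remained highest there, *Hhip* at 9.33 against 9.32 in Control replicate 2. *Gli1* remained lowest there, at 10.83 against 10.90 to 10.95 in Control.

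*Smo*, which encodes the transducer that Patched-1 represses, had 11671, 10801 and 12038 normalized counts in Control replicates 1 to 3. In LS1 replicates 1 to 3 it had 11327, 12905 and 14170, of which replicate 1 lay within the Control range and the others above it. For *Smo* the log2 fold change was 0.15 with a standard error of 0.13 and a 95% interval of -0.14 to 0.44 (adjusted p-value 0.660 from limma). Per kilobase, *Ptch1* stood at 28.6% to 43.4% of the level of *Smo*, with the highest share in LS1 replicate 1.

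Among the transcription factors, *Gli1*, an activator whose own transcript is a hedgehog target, had 1940, 1963 and 2114 normalized counts in Control replicates 1 to 3 and 1421, 2309 and 2647 in LS1 replicates 1 to 3. The Control mice were thus close together, and the LS1 mice lay on both sides of them, with replicate 1 the lowest. The log2 fold change was 0.04 with a standard error of 0.21 and a 95% interval of -0.43 to 0.50 (adjusted p-value 0.961 from limma). Without LS1 replicate 1 it was 0.30, with an unadjusted p-value of 0.0470 and an adjusted p-value of 0.407 from limma. Without LS1 replicate 3 it was -0.15.

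*Gli2*, the main activator downstream of Smoothened, had 1053, 1366 and 1218 normalized counts in Control replicates 1 to 3 and 1154, 1142 and 1074 in LS1 replicates 1 to 3. All LS1 values lay inside the Control range. Its log2 fold change was -0.10 with a standard error of 0.16 and a 95% interval of -0.46 to 0.26 (adjusted p-value 0.829 from limma).

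*Gli3*, which in the absence of ligand is processed into the main repressor of the pathway, had 2149, 2153 and 1696 normalized counts in Control replicates 1 to 3 and 2547, 1962 and 1893 in LS1 replicates 1 to 3. Only LS1 replicate 1 was above the Control range. The log2 fold change was 0.09 with a standard error of 0.17 and a 95% interval of -0.28 to 0.46 (adjusted p-value 0.859 from limma). Per kilobase, *Gli3* stood at 0.42 to 0.58 times the level of *Gli1* in Control. In LS1 this ratio was 0.93 in replicate 1 and 0.44 and 0.37 in replicates 2 and 3, so that the proportion of the 2 transcripts differed more among LS1 libraries than between the lines. The ratio was taken without the offset for GC content described below. The trend fitted in LS1 replicate 1 was 0.05 for *Gli3* and -0.36 for *Gli1* (log2). Transcript counts do not show how much GLI3 protein was processed.

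Counted over the members, limma called 0 of 9 at an adjusted p-value of 0.05, where it called 0.0725% of all tested genes. The count was also 0 of 9 with edgeR and with DESeq2, although DESeq2 called 2.58% of the genes to which it gave an adjusted p-value. An unadjusted p-value under 0.05 was found for 2 of 9 (*Pthlh* and *Ptch1*), where 12.9% of all genes had one, and both were higher in LS1, where 7.08% of all genes were so. The same 2 genes had each LS1 library above each Control library, where 10.3% of all genes did. None had each LS1 library below each Control library, where 8.94% of all genes did. The fold change was above 0 for 7 of the 9 and the median was 0.15, beside a median of 0.01 over all tested genes.

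**Figure D3:**
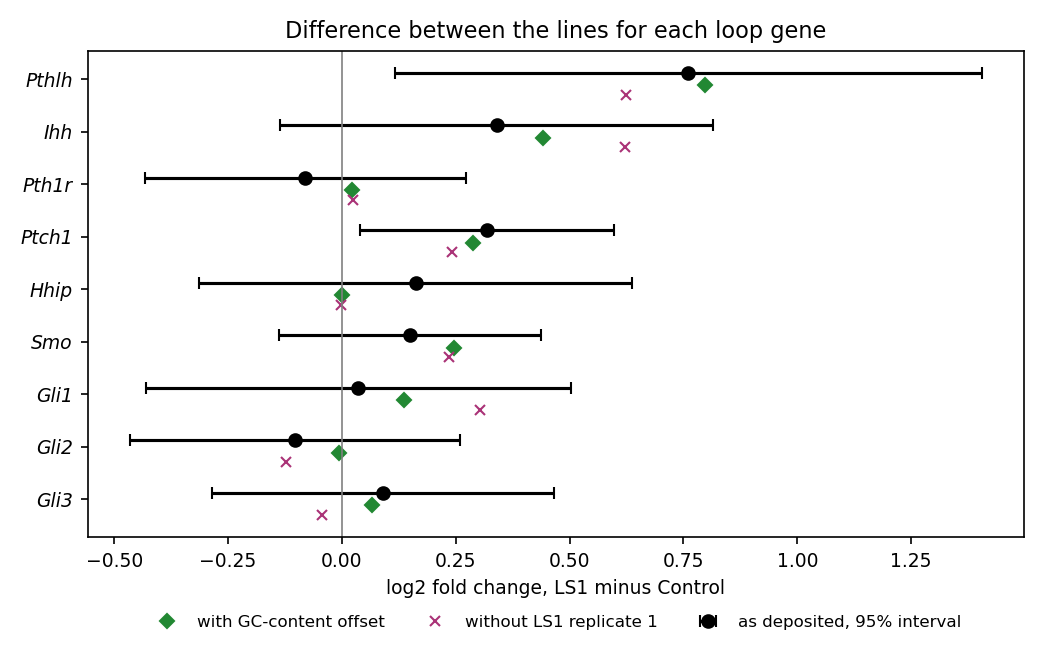
Log2 fold change of LS1 minus Control for each loop gene, from all 6 libraries with its 95% interval from limma (black), with an offset for GC content (green diamonds) and without LS1 replicate 1 (purple crosses). The intervals of *Pthlh* (0.12 to 1.405) and *Ptch1* (0.04 to 0.60) lay above 0, and the value of *Ihh* moved from 0.34 to 0.44 with the offset and to 0.62 without LS1 replicate 1.

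LS1 replicate 1 was the library in which the members parted most, and it was also the library in which counts ran with the GC content of the transcript. With the tested genes sorted by GC content into 5 bins of equal size, its median log2 value relative to the Control mean was 0.36 in the lowest bin and 0.18, 0.01, -0.19 and -0.38 in the bins above it. The same medians stayed between -0.08 and 0.10 in each of the other 5 libraries. Among the members, *Ihh* (62.3% GC in its longest transcript), *Pth1r* (60.4%), *Gli1* (59.0%), *Smo* (57.8%) and *Gli2* (57.5%) are rich in GC, and in that library each was below its Control mean, by -0.02 for *Smo* to -0.50 for *Gli1* on the log2 scale. *Hhip* (41.2% GC), *Ptch1* (47.8%), *Gli3* (48.4%) and *Pthlh* (51.8%) have less GC. In that library each of these was above its Control mean, by 0.36 for *Gli3* to 1.03 for *Pthlh*. The trend fitted there (log2, relative to the mean of the 6 libraries) was 0.29 for *Hhip*, 0.07 for *Ptch1* and 0.05 for *Gli3*. For *Pthlh*, which falls in the bin with a median of -0.19, it was -0.10, opposite in sign to its value. For the members rich in GC it ran from -0.41 for *Ihh* to -0.32 for *Gli2*.

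**Figure D4:**
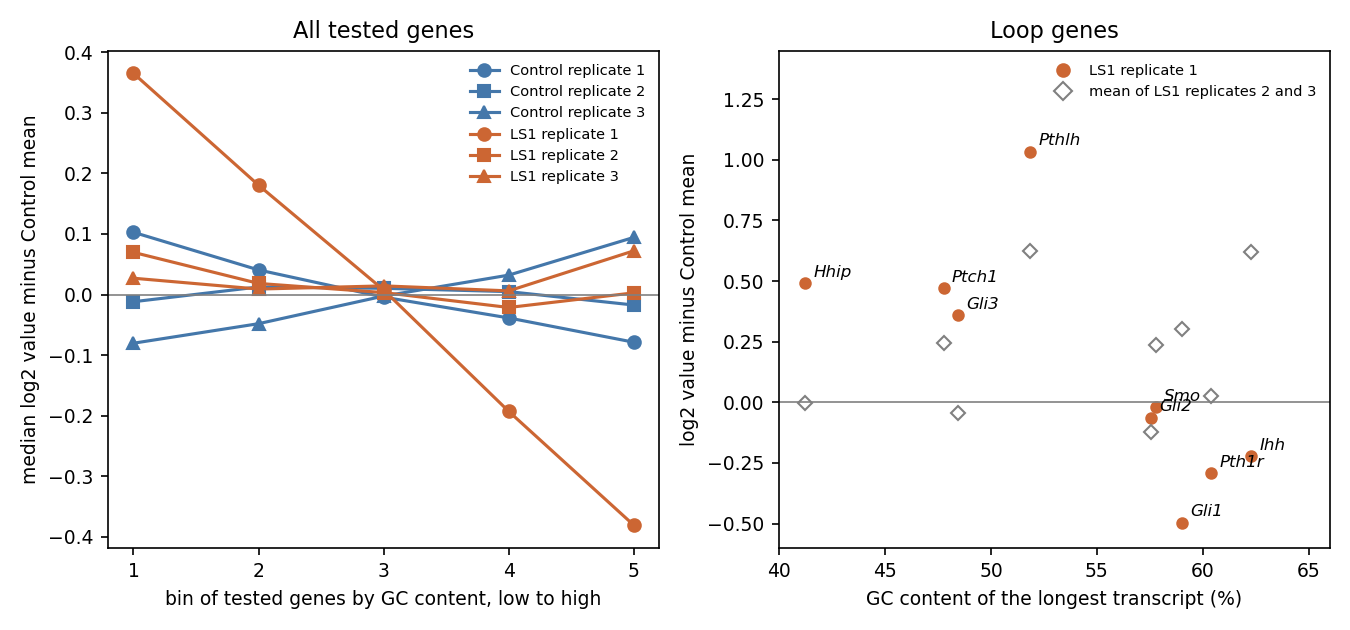
Left, median over the tested genes of the log2 value minus the Control mean, by bin of GC content, with 1 line per library; the line of LS1 replicate 1 ran from 0.36 to -0.38. Right, the same difference for the 9 loop genes against the GC content of their longest transcript, in LS1 replicate 1 (filled points) and as the mean of LS1 replicates 2 and 3 (open diamonds).

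An offset for this trend, fitted in each library over all tested genes and chosen after the data were seen, moved several members. *Ihh* then had log2 values of 11.72, 11.62 and 11.71 in Control replicates 1 to 3 and of 11.93, 12.23 and 12.22 in LS1 replicates 1 to 3, so that its groups no longer overlapped. Its log2 fold change was 0.44, with an unadjusted p-value of 0.0030 and an adjusted p-value of 0.162 from limma. *Smo* had a log2 fold change of 0.25 (unadjusted p-value 0.0363, adjusted 0.297, limma), *Pthlh* of 0.80 (adjusted p-value 0.243, limma) and *Ptch1* of 0.29 (adjusted p-value 0.229, limma). *Hhip* was left at 0.001, *Gli2* at -0.01, *Pth1r* at 0.02, *Gli3* at 0.07 and *Gli1* at 0.14. With the offset, 4 of 9 members (*Pthlh*, *Ihh*, *Ptch1* and *Smo*) had an unadjusted p-value under 0.05 and were higher in LS1, where 7.36% of all genes were so, and the same 4 had each LS1 library above each Control library, where 9.99% did. Without LS1 replicate 1 the offset left 2 of these under 0.05, *Ihh* (unadjusted p-value 0.000551, limma) and *Ptch1* (0.0464), while *Pthlh* had 0.0812 and *Smo* 0.103. With the offset 0 of 9 passed the adjusted threshold, also without LS1 replicate 1.

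The low level of *Gli1* in LS1 replicate 1 remained in part under the offset, at 10.83 against 10.90 to 10.95 in Control. In LS1 replicate 3, in contrast, *Gli1* was the highest of the 6 libraries with and without the offset (11.23 on the log2 scale with it). Whether the spread among the LS1 mice came from the animals or from the libraries was not tested.

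The profiles of the members over the 6 libraries were compared by the root mean square difference of their log2 values, each centred on its own mean. *Gli3* and *Hhip* were the closest pair at 0.0578, and of 14769 other genes with a mean of at least 100 reads, 28 were closer to *Hhip* than *Gli3* was and 62 were closer to *Gli3* than *Hhip* was. *Ihh* and *Gli1* followed at 0.162, with 141 genes closer to *Ihh* than *Gli1* was and 810 closer to *Gli1* than *Ihh* was. *Ptch1* and *Gli3* came next at 0.163, a distance within which 2314 genes lay from *Ptch1* and 2466 from *Gli3*. The farthest pair was *Pthlh* and *Gli1* at 0.548. These distances share the libraries and their GC trend, and *Gli3* and *Hhip* are both among the members with less GC. Outside the members, the genes with the profile nearest to that of *Ihh* were *Ydjc* (0.0633), *Npm3-ps1* (0.0705) and *Dnajc4* (0.0772). Those nearest to *Pthlh* were *Mtm1* (0.0853), *Sept10* (0.0945) and the imprinted gene *Mest* (0.0985).

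*Ihh* is made by chondrocytes that enter hypertrophy, and it was also set against *Col10a1*, the collagen of hypertrophic chondrocytes. *Col10a1* had 315844, 372943 and 340963 normalized counts in Control and 533299, 504434 and 533263 in LS1. Its log2 fold change was 0.61 with a standard error of 0.13 (adjusted p-value 0.158 from limma), and each LS1 library was above each Control library, LS1 replicate 1 included. DESeq2 gave *Col10a1* an adjusted p-value of 0.00367, and it called 2.58% of the genes given one. *Ihh* amounted to 1.05%, 0.843% and 1.11% of the *Col10a1* count in Control replicates 1 to 3 and to 0.548%, 1.00% and 1.02% in LS1 replicates 1 to 3, so LS1 replicates 2 and 3 were inside the Control range and replicate 1 below it. These shares were taken without the offset for GC content, and the trend fitted for *Ihh* in LS1 replicate 1 was -0.41 (log2). Of the other hypertrophic markers, *Panx3* had a log2 fold change of 0.47 (adjusted p-value 0.261, limma) and *Mmp13* of -0.37 (adjusted p-value 0.494, limma). Chondrocyte markers as a whole had a median of 0.45, with 13 of 16 above 0. Of the 16, limma called 0 and DESeq2 called 6. The part of these markers in the values of the loop genes was not tested. When all genes were expressed relative to these markers, *Pthlh* was left at 0.41, while *Ihh* stood at -0.01, *Ptch1* at -0.04 and *Smo* at -0.20. On this scale the median over all tested genes was -0.35, and 6611 of 19308 had an unadjusted p-value under 0.05 (limma). The members farthest below 0 were then *Gli2* at -0.46 (unadjusted p-value 0.0199, adjusted 0.0908, limma) and *Pth1r* at -0.43 (unadjusted p-value 0.0391, adjusted 0.128, limma). Of the members 0 of 9 passed the adjusted threshold, where 8.43% of all tested genes did.

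The genes around the loop were taken from 6 lists of 62 genes in all, of which 58 were tested. With limma 0 of 58 passed the adjusted threshold. An unadjusted p-value under 0.05 was found for 8 of 58 (13.8%), close to the 12.9% of all tested genes, with 6 higher and 2 lower in LS1. Each LS1 library was above each Control library for 8 (13.8%, beside 10.3% of all genes) and below for 4 (6.90%, beside 8.94%). The median log2 fold change was 0.07.

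Of the genes for hedgehog ligands, their release and their spread, 8 of 9 were tested and 7 had a fold change above 0, with a median of 0.19. *Dhh*, which encodes Desert hedgehog, had a log2 fold change of 0.57 (adjusted p-value 0.522, limma) from at most 97 reads per library, and it shares exon bases with other genes. *Scube3*, which encodes a secreted carrier of hedgehog, had 0.32 (adjusted p-value 0.419, limma). The lowest were *Scube1* at -0.08 and *Ext1*, which encodes an enzyme of heparan sulfate synthesis, at 0.03. *Shh* had at most 3 reads in a library and was not tested, so of the 3 hedgehog ligands *Ihh* was the abundant one in this tissue, at 1295 per kb against 10.8 and 15.7 per kb for *Dhh* in Control and LS1.

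Of the other hedgehog receptors and co-receptors, 4 of 5 were tested, with a median of 0.15 (0.06 without Control replicate 3 and 0.23 without LS1 replicate 2). *Cdon*, a co-receptor that aids the binding of hedgehog, had 3217, 3560 and 2446 normalized counts in Control replicates 1 to 3 and 5371, 5003 and 3383 in LS1 replicates 1 to 3. Its groups overlapped through LS1 replicate 3, and its log2 fold change was 0.57 with a standard error of 0.20 (unadjusted p-value 0.0156, adjusted 0.293, limma). The co-receptors *Boc* and *Gas1* stood at 0.15 and 0.14.

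Of the 17 genes that act between Smoothened and the GLI proteins, all were tested, 11 had a fold change above 0 and the median was 0.10. *Stk36*, which encodes the relative of the fly pathway kinase Fused, and *Gsk3b*, which encodes a kinase that phosphorylates GLI proteins after protein kinase A, had the highest values at 0.46 and 0.35 (adjusted p-values 0.507 and 0.449, limma). *Btrc*, which encodes the ubiquitin ligase subunit that recognises phosphorylated GLI3, had the lowest at -0.40 with a standard error of 0.15 (unadjusted p-value 0.0217, adjusted 0.310, limma), with 4446 to 4932 normalized counts in LS1 against 4956 to 6799 in Control. *Grk2*, a kinase of Smoothened, followed at -0.19. *Tulp3*, named after its values were seen, had an unadjusted p-value of 0.0420 at a log2 fold change of 0.32 (adjusted p-value 0.365, limma).

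Of 6 further hedgehog response genes all were tested, 2 had a fold change above 0 and the median was -0.10. Its sign turned with 1 library left out, to 0.07 without Control replicate 1 and 0.04 without LS1 replicate 1, and it was -0.23 without Control replicate 2 and -0.26 without LS1 replicate 3. *Ccnd1*, which encodes cyclin D1, had 2253, 2446 and 2444 normalized counts in Control and 2941, 3438 and 3197 in LS1, with no overlap, a log2 fold change of 0.42 and a standard error of 0.13 (unadjusted p-value 0.0095, adjusted 0.264, limma). It shares 1100 exon bases with a gene on the opposite strand. The others ran from -0.66 for *Foxf1*, at 15 to 53 reads per library, to 0.06 for the survival gene *Bcl2*. Among the hedgehog targets, *Ptch1* and *Ccnd1* had each LS1 library above each Control library, as 10.3% of all tested genes did. The libraries of *Gli1*, *Hhip* and all other genes of this list overlapped.

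Of 14 genes for other ligands, receptors and signal transduction at PTH1R, 12 were tested, 6 above and 6 below 0, with a median of 0.00 (-0.06 to 0.03 with 1 library left out). *Pth*, which encodes parathyroid hormone, had 0 reads in all 6 libraries and *Pth2r* at most 7 reads. *Arrb1*, which encodes a β-arrestin that binds the activated receptor, had 32583, 26778 and 26455 normalized counts in Control and 15981, 24047 and 21658 in LS1. Each LS1 library was below each Control library, and the log2 fold change was -0.49 with a standard error of 0.17 (unadjusted p-value 0.0136, adjusted 0.284, limma). The adenylyl cyclase gene *Adcy6* stood at -0.28, *Gnaq* at 0.19 and the protein kinase A subunit gene *Prkar1a* at 0.15.

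**Figure D5:**
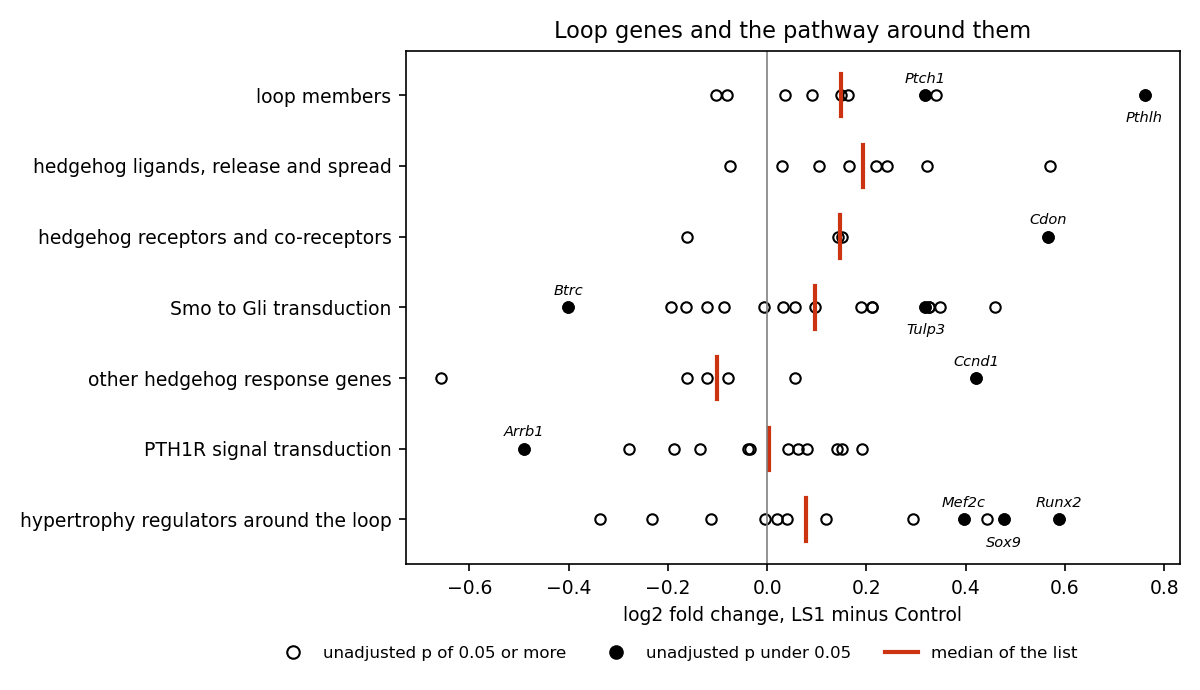
Log2 fold change of LS1 minus Control for the 9 loop genes and for the tested genes of 6 lists around them, with 1 circle per gene (filled where the unadjusted p-value from limma was under 0.05) and a red bar at the median of each list. The medians lay between -0.10 (other hedgehog response genes) and 0.19 (ligands, release and spread), and no gene shown passed the adjusted threshold.

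Of 12 regulators of hypertrophy on which the loop acts or that act on *Ihh*, all were tested, 8 had a fold change above 0 and the median was 0.08 (0.21 without Control replicate 1, 0.14 without either LS1 replicate 1 or 3, 0.03 without Control replicate 3 and 0.04 without LS1 replicate 2). *Runx2*, which encodes a transcription factor that drives hypertrophy and *Ihh* expression, had 8131, 7142 and 6220 normalized counts in Control and 11099, 11481 and 9618 in LS1, with no overlap. Its log2 fold change was 0.59 with a standard error of 0.14 (unadjusted p-value 0.0015, adjusted 0.185, limma). DESeq2 gave *Runx2* an adjusted p-value of 0.0282. It was the 1 gene of the 58 that DESeq2 called, when 2.58% of the genes given an adjusted p-value were called. *Runx2* shares 519 exon bases with an antisense transcript.

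*Sox9*, the transcription factor of proliferating chondrocytes, had 5217, 5179 and 4249 normalized counts in Control and 7818, 8501 and 4668 in LS1. LS1 replicate 3 lay inside the Control range, and the log2 fold change was 0.48 with a standard error of 0.21 (unadjusted p-value 0.0440, adjusted 0.371, limma). Without LS1 replicate 3 it was the 1 gene of the 58 that limma called, when 1.68% of all tested genes were called. *Mef2c*, named after its values were seen, had 0.40 (unadjusted p-value 0.0273, adjusted 0.326, limma). The lowest were *Hdac5* and *Mef2d*, at -0.34 and -0.23.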

How the data were processed

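RNA of 3 Control and 3 LS1 mice was sequenced as 1 library per mouse. The authors mapped reads to GRCm38 with HISAT2 2.0.2 and made gene counts with featureCounts 1.4.6 on the Ensembl release 84 annotation. The deposited values are a signal per gene, the read count divided by 1 size factor per library, and 0 columns were left unused. Whole reads were recovered for 100% of values (within 0.001 reads). In Control replicate 1 a read was worth 1.009 normalized counts, the nearest to 1 of the libraries, and edgeR was also run without that library.

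Genes with a mean of at least 20 reads were tested on log2(value + 1) with limma 3.58.1 in R 4.3.3 (mean-variance trend, robust moderation), with Benjamini-Hochberg adjustment over all tested genes and a threshold of 0.05. Fold changes are on that scale, which slightly understates the change of low genes such as *Pthlh*. The 20 alternatives covered edgeR 4.0.16, DESeq2 1.42.0, limma-voom, TMM scaling, pseudocounts of 0.5 and 5, other filters, a replicate block, centring on chondrocyte markers, offsets for GC content and length (loess, span 0.3) and each library left out. The offsets and the edgeR run without Control replicate 1 were chosen after the data were seen. The scripts were tested on simulated data.

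The members and lists were chosen with earlier results of these data known. All members are named, and of each list the 2 highest and the 2 lowest tested genes by fold change and any gene called, except 1 gene that is not reported here. For *Ihh* and *Pthlh* the 3 genes nearest in profile are named. Symbols came from a table of gene names (98.9% of identifiers matched), and coordinates, exon lengths and GC content of the longest transcript from GENCODE M21.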

Additional observations from a re-analysis of the deposited data

How the results depend on the processing

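Of the 9 members, 0 passed the adjusted threshold under any of the 20 alternatives. *Pthlh* was above 0 in all 19 that gave it a value (0.41 to 0.85), since its mean was under the filter of 100 reads. *Ptch1*, *Ihh* and *Smo* were above 0 in 19 of 20. Relative to chondrocyte markers, which lowered the median of all genes by 0.35, *Ihh* was -0.0146, *Ptch1* -0.0354, *Smo* -0.20, *Gli1* -0.32, *Gli3* -0.26 and *Hhip* -0.19, with *Gli2* at -0.46 and *Pth1r* at -0.43. *Pth1r* was 0.0216 with the GC-content offset, *Gli1* -0.0107 with the length offset, and *Gli3* -0.0524 and *Hhip* -0.0609 with the GC-content offset without LS1 replicate 1. With 1 library left out, *Pth1r* ran from -0.22 to 0.0252, *Gli1* from -0.15 to 0.30, *Gli3* from -0.0438 to 0.17 and *Hhip* from -0.00201 to 0.25. *Gli2* ran from -0.20 to -0.0128, *Ihh* from 0.17 to 0.62 and *Pthlh* from 0.62 to 0.85. The genes called over the whole table were 14 (2 higher, 12 lower), and 7 with edgeR, 5 with edgeR without Control replicate 1, 459 with DESeq2 (277 higher, 182 lower), 45 with no filter beyond 1 read, 9 with a mean of at least 100 reads, 8 with the length offset, 47 with the GC-content offset without LS1 replicate 1 and 1627 relative to chondrocyte markers (26 higher, 1601 lower). With 1 library left out they ran from 5 (without Control replicate 2) to 324 (without LS1 replicate 3; 226 higher, 98 lower), with 9 without Control replicate 1 and 46 without LS1 replicate 1. Of the 58 genes around the loop, 0 were called. DESeq2 called 1 (*Runx2*), when it called 2.58% of the genes given an adjusted p-value. Relative to chondrocyte markers 5 were called (*Mef2d*, *Arrb1*, *Hdac5*, *Grk2* and *Btrc*, all lower). There 8.43% of all tested genes were called, 1601 of the 1627 lower. With 1 library left out 0 to 1 were called (*Sox9* without LS1 replicate 3, when 1.68% of all tested genes were called). Libraries of the 2 lines share letters in their names, which the labels do not explain. The deviations of same-letter libraries correlated at 0.05, 0.02 and 0.22, not every library correlated best with its own letter, and a replicate block called 12 genes and 0 of the 9 members. The causes of these shifts were not tested. Depth limits *Pthlh* most, at 53 to 128 reads per library.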

Other observations

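Cell types beside the cartilage that houses the loop also differed between the libraries, and their part in the values above was not tested. Of 6 markers of the upper zone and articular cartilage, where PTHrP is made, all 6 had a fold change above 0, with a median of 0.47. Together they had between 15926 and 18115 normalized counts per Control mouse and between 20807 and 27295 per LS1 mouse, and 0 of them passed the adjusted threshold of limma. DESeq2 called 1 of them. Osteoblast and osteocyte markers, by contrast, were split, with 5 of 10 above 0 and a median of 0.01.

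Blood cell markers of the marrow went both ways. All 7 erythroid markers had a fold change below 0, with a median of -0.52, with sums of 265116 to 373252 in the Control mice and of 172421 to 293253 in the LS1 mice. Of the B cell markers 6 of 7 were below 0 (median -0.48), while neutrophil markers (median 0.31) and macrophage markers (median 0.24) were mostly above 0. Skeletal muscle markers had a median of -0.73, and their sums overlapped (Control mice, 7479 to 18928 normalized counts; LS1 mice, 3788 to 10693). Tendon and fibrous markers had a median of 0.38, endothelial markers 0.11 and osteoclast markers 0.04. None of these genes passed the adjusted threshold of limma. DESeq2 called 1 of the B cell markers and 1 of the tendon and fibrous markers.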
